A study of Mus musculus with 15 samples.

Results

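The sterol and fatty acid synthesis genes are the enzymes that build cholesterol and long-chain fatty acids from acetyl-CoA, together with the genes that regulate them or move sterols. The list held 35 genes, chosen by pathway and not by a cut on measured values, of which 18 are sterol enzymes, 6 are fatty acid enzymes and 11 are regulators, transport and liver X receptor (LXR) genes. A gene was followed through the array feature annotated with its symbol alone, or the feature with the highest mean over all arrays where there were several. By this rule 31 of the 35 genes were measured, among 16257 genes tested. They were 16 sterol enzymes, 5 fatty acid enzymes and 10 regulators, and all 31 passed the filter on dim features. Idi1, Acat2, Scd2 and Nr1h2 each lacked a feature annotated to that gene only and are not analysed here.

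The levels were measured in group 2 innate lymphoid cells (ILC2s), tissue-resident lymphocytes that make type 2 cytokines, isolated from mouse lungs. There were 15 Affymetrix arrays in 5 groups of 3, which the labels call biological replicates. Neonates were 10 days old and naive, and the labels gave no sex for them. Effector females and effector males were adults given IL-33 through the nose on 3 consecutive days, with cells isolated 1 day after the last dose. Naive females and naive males were 8 weeks old. The sources used here do not give the strain, batches, sorting markers, mice per array or the age of the effector adults. The labels name no allele or other agent. No group was labelled as dosed without IL-33, so IL-33, the dosing itself and any batch shared by a group cannot be told apart. Where nothing is said of separate animals, p-values measure the spread between these arrays.

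In mammalian cells the synthesis of sterols and fatty acids is controlled by the sterol regulatory element binding proteins (SREBPs), which are held in the endoplasmic reticulum by the escort protein SCAP and the INSIG proteins while sterol is plentiful. When membrane sterol falls, SCAP carries the SREBPs to the Golgi, where proteases release their active part, and the genes of both pathways are transcribed together. For sterols the LXRs act in the other direction: they are activated by oxysterols and turn on sterol export and the degradation of lipoprotein receptors.

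By the labels the cells were ILC2s, and their identity was not tested beyond the marker levels given here and below. Gata3, the defining transcription factor, had mean levels of 8.75 in neonates, 8.72 in effector adults and 8.83 in naive adults, where a level is the log2 value as deposited. The 11 measured ILC2 markers averaged 9.10 to 9.53 per neonatal array, 9.19 to 9.53 per effector array and 8.78 to 9.18 per naive adult array. Of the 11, 3 were higher and 1 was lower in effector than in naive adults by the limma test described below. Il13 rose by 3.07 ± 0.14 (SE), Il5 by 1.46 ± 0.21 and Il2ra by 0.45 ± 0.11. Il7r fell, with a difference of -1.11 ± 0.14. Since the list includes the cytokine genes Il5 and Il13, its mean is not a measure of identity alone. Array medians lay between 4.44 and 4.64. Over all features, arrays correlated within a group at r of 0.904 to 0.925 in neonates, 0.965 to 0.974 in effector females, 0.962 to 0.969 in effector males, 0.931 to 0.960 in naive females and 0.911 to 0.914 in naive males. Naive male arrays 1 and 2 and neonatal array 2 had the 3 lowest median correlations with the other arrays (0.889, 0.880 and 0.900). They were taken by rank and not by an outlier test. Naive female array 3 and naive male array 3 followed closely, both at 0.911. The 3 lowest are called below the arrays that stood apart, and results that rest on them are given with and without them. In 1440 features of sensory receptor genes, taken as signal without transcript, the upper quartile was 3.79 in neonates, 3.38 in effector females, 3.39 in effector males, 3.94 in naive females and 4.21 in naive males. Only Scd1 in naive females and Scd1 and Nr1h3 in naive males had a mean at or below that quartile. The 95th percentile of these features was 4.99 in neonates, 4.69 in effector females, 4.64 in effector males, 5.47 in naive females and 6.01 in naive males. Below it lay the means of 3 members in neonates, 2 in effector females, 2 in effector males, 7 in naive females and 15 in naive males. The 7 were Hmgcs1, Lss, Tm7sf2, Scd1, Elovl6, Stard4 and Nr1h3, and the 15 were these with Mvk, Sqle, Cyp51, Msmo1, Hsd17b7, Srebf1, Insig2 and Abca1. Differences of these genes are given on the log2 scale of the deposited values and not as folds, since levels near background are compressed. Precision is limited by the number of arrays.

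After IL-33, genes of both pathways were higher together. Of the 31 members, 25 rose in effector adults relative to naive adults, 2 fell and 4 did not pass the test. A gene was called when limma's two-sided p, adjusted by Benjamini-Hochberg over all 16257 genes, was under 0.05, and by this rule 23.7% of all genes tested were higher and 10.9% lower. The median log2 difference of the members was 0.75, against 0.03 for all genes tested. Without the 3 arrays that stood apart 21 members rose and 2 fell, with a median of 0.76. In 18 of the 31 members every effector array lay above every naive adult array, as in 15.2% of all genes. In 1 member, Mylip, every effector array lay below, as in 4.93% of all genes. In bulk samples such as these, fewer cells of a type and less RNA per cell cannot be told apart.

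The scale of the arrays bears on these counts. With the values as deposited, 68.5% of the called genes were higher in effector adults. After centring each array on its median, 83.0% were, and the median of all genes moved to 0.17. Read on the centred scale, the members had a median of 0.88, with 26 higher and 2 lower. A further quantile normalization moved the counts the other way. With it 67.0% of the called genes were higher, and the members had a median of 0.64, with 20 higher and 2 lower. In females 73.1% of the called genes were higher as deposited and 83.9% after centring, and in males 74.9% and 86.8%. After the quantile normalization 11 members rose in females and 15 in males.

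Promoter sequence is a property that the choice of members did not use. RefSeq promoters of the GRCm38.p6 build, running from 250 bases before to 50 bases after the transcription start, were listed for 25 of the 31 measured members and not for Fdps, Fdft1, Sqle, Scd1, Stard4 and Abcg1. Matches to 4 motifs were looked for on both strands. The CCAAT box, spelled CCAAT, is the element of the factor NF-Y, which is known to act with SREBPs. It was found in 13 of 13 sterol enzyme genes with a promoter, in 2 of 4 fatty acid enzyme genes and in 5 of 8 regulator genes, against 41.6% of the 12620 tested genes with a promoter. The GC box, spelled GGGCGG, was found in 12 of 13, 1 of 4 and 7 of 8, against 59.2%. The E box, spelled CACGTG, was found in 3 of 13, 0 of 4 and 3 of 8, against 10.5%. A strict sterol regulatory element, spelled TCACNCCAC, was found in Hmgcs1 alone of the members, against 1.43% of the tested genes. Some genes list several promoters, and any of them counted above. By promoter rather than gene, the CCAAT box was in 13 of 16, 2 of 4 and 6 of 14, against 37.2% of the 15641 promoters of tested genes. The GC box was in 13 of 16, 1 of 4 and 10 of 14, against 54.6%. The E box was in 3 of 16, 0 of 4 and 4 of 14, against 9.03%. Over all 32851 promoters listed, the shares were 37.4% for the CCAAT box, 35.7% for the GC box, 7.15% for the E box and 1.24% for the sterol regulatory element. A match is a description of letters in this window and shows no binding.

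The 250 bases before the start are shown 5′ to 3′ on the gene's strand for 6 members that stand for the patterns described below, with matches to the 4 motifs on either strand in capitals. Hmgcs1, at chr13:119690101-119690350 on the plus strand, holds the sterol regulatory element match, TCACCCCAC, with CCAAT boxes on the minus strand on either side of it. Cyp51, at chr5:4104698-4104947 on the minus strand, was higher in both effector adults and neonates. Msmo1, at chr8:64733579-64733828 on the minus strand, was called higher in effector adults and not in neonates, and carries 3 CCAAT boxes. Fasn, at chr11:120824548-120824797 on the minus strand, carries 3, of which a pair overlap on opposite strands. Elovl6, at chr3:129532136-129532385 on the plus strand, stood alone at its effector levels and had no match to any of the 4 motifs. Mylip, at chr13:45389492-45389741 on the plus strand, fell, and it also carries 3 CCAAT boxes, as many as Msmo1.
Hmgcs1: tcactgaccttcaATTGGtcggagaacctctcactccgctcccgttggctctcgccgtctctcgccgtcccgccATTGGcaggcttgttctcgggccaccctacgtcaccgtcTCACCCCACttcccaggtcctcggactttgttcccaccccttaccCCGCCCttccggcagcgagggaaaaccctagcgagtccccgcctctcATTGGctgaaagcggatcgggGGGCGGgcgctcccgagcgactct
Cyp51: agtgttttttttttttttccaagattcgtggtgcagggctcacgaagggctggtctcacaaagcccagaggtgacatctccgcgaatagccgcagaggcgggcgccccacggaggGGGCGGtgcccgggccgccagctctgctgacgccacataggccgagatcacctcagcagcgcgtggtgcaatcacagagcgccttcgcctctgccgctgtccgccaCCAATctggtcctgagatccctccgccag
Msmo1: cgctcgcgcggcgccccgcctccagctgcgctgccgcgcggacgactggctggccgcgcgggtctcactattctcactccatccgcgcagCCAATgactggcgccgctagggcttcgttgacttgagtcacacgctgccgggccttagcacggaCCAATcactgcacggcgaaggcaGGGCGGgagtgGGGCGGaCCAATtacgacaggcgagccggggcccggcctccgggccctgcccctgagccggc
Fasn: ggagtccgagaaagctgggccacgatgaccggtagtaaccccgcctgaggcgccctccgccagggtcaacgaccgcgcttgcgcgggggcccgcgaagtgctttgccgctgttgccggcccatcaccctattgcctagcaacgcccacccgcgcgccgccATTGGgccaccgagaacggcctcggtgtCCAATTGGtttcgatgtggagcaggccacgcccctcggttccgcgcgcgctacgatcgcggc
Elovl6: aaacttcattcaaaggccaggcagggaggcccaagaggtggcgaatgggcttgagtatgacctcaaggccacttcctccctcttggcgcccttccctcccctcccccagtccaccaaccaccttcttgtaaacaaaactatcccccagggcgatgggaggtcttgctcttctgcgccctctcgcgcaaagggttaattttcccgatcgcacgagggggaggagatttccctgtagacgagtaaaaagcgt
Mylip: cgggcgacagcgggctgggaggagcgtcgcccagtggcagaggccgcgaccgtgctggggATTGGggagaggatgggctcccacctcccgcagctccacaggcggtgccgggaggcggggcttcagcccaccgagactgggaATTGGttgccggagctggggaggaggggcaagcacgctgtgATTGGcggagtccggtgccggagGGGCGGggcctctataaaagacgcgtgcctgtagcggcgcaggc

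Sterol enzymes rose at nearly every measured step. Of 16 measured, 15 rose in effector adults, with a median log2 difference of 0.83, and none fell. In 11 of the 16 every effector array lay above every naive adult array. Over the steps of the pathway, 4 of 5 mevalonate and isoprenoid enzymes rose with a median of 0.69, 3 of 3 squalene enzymes with a median of 1.79, and 8 of 8 enzymes after lanosterol with a median of 0.83. The mean level of the 16 genes was 6.31 to 6.75 per neonatal array, 7.38 to 7.63 per effector array and 6.10 to 6.62 per naive adult array, so that the effector arrays stood clear of both other groups.

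The mevalonate pathway starts with Hmgcs1, the synthase that makes HMG-CoA. Its level was 6.78, 5.46 and 6.19 in neonates, 7.14, 6.87 and 6.44 in effector females, 6.65, 6.68 and 6.99 in effector males, 5.49, 5.09 and 5.16 in naive females and 5.05, 4.85 and 5.63 in naive males. All 6 effector arrays were above all 6 naive arrays, and the neonatal arrays ranged from naive levels to effector levels. The log2 difference between effector and naive adults was 1.58 ± 0.21 (SE, n = 6 each; limma adjusted p = 3.8e-05). Fdps, which makes farnesyl diphosphate for sterols and for protein prenylation, was at 7.04, 6.89 and 6.75 in neonates, 8.33, 8.93 and 8.42 in effector females, 8.66, 8.47 and 8.58 in effector males, 6.81, 6.79 and 6.05 in naive females and 6.68, 6.43 and 6.0 in naive males. Neonatal and naive levels of Fdps overlapped, while the lowest effector array was more than 1 log2 unit above the highest array of any other group. Fdps rose by 2.10 ± 0.17 (limma adjusted p = 1.8e-07). Between these steps the changes were smaller. Pmvk, the phosphomevalonate kinase, rose by 0.69 ± 0.11 and Mvd, the diphosphomevalonate decarboxylase, by 0.69 ± 0.21. Mvk, the mevalonate kinase, was at 6.13 ± 0.29 in effector adults and 5.84 ± 0.13 in naive adults (SD, n = 6 each) and was not called (difference 0.30 ± 0.14, limma adjusted p = 0.13), although it was called after centring the arrays (0.44) and without effector male array 1 (0.40).

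Squalene synthesis and epoxidation commit the pathway to sterols. Fdft1, the squalene synthase, was at 6.29, 6.92 and 7.23 in neonates, 8.18, 8.16 and 8.35 in effector females, 8.29, 8.40 and 8.11 in effector males, 7.12, 6.82 and 6.25 in naive females and 6.17, 5.91 and 6.50 in naive males. Its difference between effector and naive adults was 1.79 ± 0.18 (SE; limma adjusted p = 2.5e-06). Sqle, the squalene epoxidase and a rate-limiting enzyme, was at 6.44, 6.03 and 6.75 in neonates, 8.01, 8.21 and 8.10 in effector females, 8.11, 8.29 and 8.38 in effector males, 6.37, 6.77 and 6.07 in naive females and 6.82, 5.26 and 5.86 in naive males. For both genes the 6 effector arrays lay close together and above all others, and naive and neonatal arrays were mixed. Sqle rose by 1.99 ± 0.22 (SE; limma adjusted p = 6.8e-06). Lss, which closes the ring to form lanosterol, rose by 0.74 ± 0.23 with overlapping arrays (limma adjusted p = 0.021), and this call was lost without effector female array 3 (0.65), with effector male array 1 left out (0.62), without naive female array 3 (0.60), with naive male array 2 left out (0.59) and without the 3 arrays that stood apart (0.57).

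After lanosterol, Cyp51, the lanosterol demethylase, had levels of 7.87, 6.79 and 7.28 in neonates, 8.49, 8.42 and 8.04 in effector females, 8.41, 8.33 and 8.51 in effector males, 6.18, 6.37 and 6.70 in naive females and 5.71, 5.75 and 6.25 in naive males. The 3 kinds of cells did not overlap for this gene: every effector array was above every neonatal array, and every neonatal array above every naive adult array. The effector difference from naive adults was 2.21 ± 0.18 (SE; limma adjusted p = 2.1e-07). Msmo1, the methylsterol monooxygenase that follows, was at 5.51, 4.76 and 6.08 in neonates, 6.63, 6.87 and 6.66 in effector females, 6.75, 6.91 and 6.86 in effector males, 6.07, 5.62 and 5.38 in naive females and 5.38, 4.63 and 5.24 in naive males. Here neonates covered about the same range as naive adults, and the effector arrays lay above both, by 1.40 ± 0.20 over naive adults. Hsd17b7, a ketosteroid reductase of the same demethylation complex, rose by 1.32 ± 0.15 and Nsdhl, its dehydrogenase, by 0.71 ± 0.15. The reductase Dhcr7, which yields cholesterol, rose by 0.89 ± 0.19 and the reductase Tm7sf2 by 0.55 ± 0.13.

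Ebp, the sterol isomerase, and Sc5d, the sterol desaturase, had overlapping arrays. Ebp rose by 0.43 ± 0.13 (SE; limma adjusted p = 0.018), a call that was lost after a further quantile normalization (0.27) and without effector male array 2 (0.37). Sc5d rose by 0.76 ± 0.25 (limma adjusted p = 0.025), with 2 naive arrays at effector levels: naive female 1 at 8.56 and naive male 3 at 8.69, against 7.06 to 8.00 on the other 4 naive arrays. Without the 3 arrays that stood apart its difference was 0.30 and it was not called, nor was it after a further quantile normalization (0.58). The same was true without effector female array 2 (0.72), without effector male array 3 (0.74), without naive female array 3 (0.61) and without naive male array 1 (0.70) or 2 (0.59). Mvd also lost its call under quantile normalization (0.51).

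**Figure D1:**
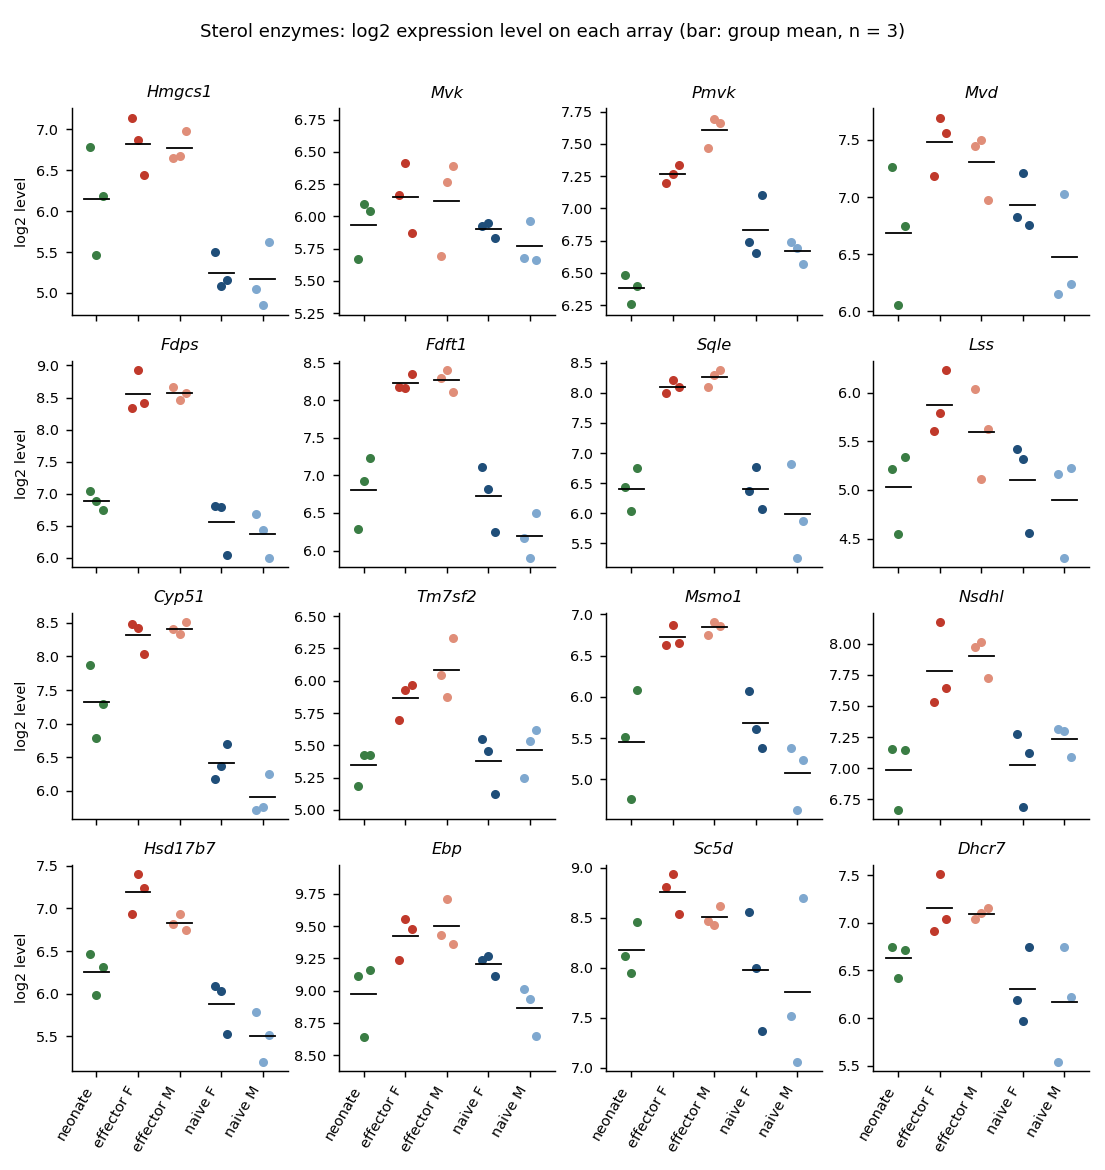
Log2 level of the 16 measured sterol enzymes on each of the 15 arrays, 1 panel per gene in pathway order, with points for arrays and a bar for the group mean (n = 3 each; each panel has its own vertical axis, which does not start at 0). For Fdps, Fdft1, Sqle and Msmo1 the effector arrays form a band above all others, Cyp51 steps down over effector, neonatal and naive arrays, and Mvk overlaps between all groups.

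All 5 fatty acid enzymes rose in effector adults, with a median log2 difference of 0.75. Fasn, the fatty acid synthase, was at 8.40, 8.88 and 8.51 in neonates, 8.84, 9.17 and 9.32 in effector females, 9.44, 9.22 and 9.41 in effector males, 7.88, 7.71 and 7.20 in naive females and 7.54, 7.43 and 7.93 in naive males. Every effector and every neonatal array was above every naive adult array, and the effector difference from naive adults was 1.62 ± 0.15 (SE; limma adjusted p = 1.2e-06), a 3.07-fold change. Elovl6, which lengthens the palmitate made by Fasn, was at 5.11, 4.21 and 5.37 in neonates, 6.79, 7.45 and 6.91 in effector females, 7.36, 6.56 and 7.45 in effector males, 5.37, 5.0 and 4.25 in naive females and 4.45, 3.82 and 5.74 in naive males. Its effector levels stood alone, and its difference from naive adults was 2.32 ± 0.31 on the log2 scale (limma adjusted p = 4.5e-05). The means of Elovl6 were 4.89 in neonates, 4.87 in naive females and 4.67 in naive males, below the 95th percentile of the sensory receptor features in these groups, which was 4.99, 5.47 and 6.01.

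Acly, which supplies cytosolic acetyl-CoA from citrate, was at 7.88, 7.67 and 7.98 in neonates, 7.72, 7.82 and 7.83 in effector females, 8.10, 7.67 and 7.86 in effector males, 7.34, 7.31 and 6.60 in naive females and 7.32, 7.45 and 7.55 in naive males. Neonatal and effector levels of this gene were alike in range, and both were above all naive adult arrays. Acly rose by 0.57 ± 0.14 in effector adults (limma adjusted p = 0.0052; 0.37 and not called after a further quantile normalization). Acaca, the acetyl-CoA carboxylase that makes malonyl-CoA, rose by 0.75 ± 0.19, but its arrays overlapped and it was not called without the 3 arrays that stood apart (0.45). The desaturase Scd1 rose by 0.62 ± 0.15 at levels of 3.79 to 4.39 in effector adults and 2.81 to 3.85 in naive adults, near the signal of the sensory receptor features.

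**Figure D2:**
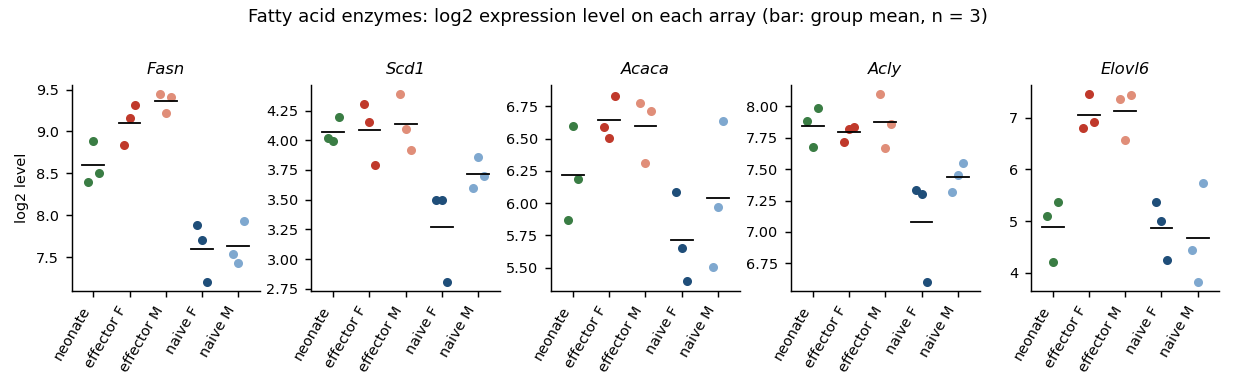
Log2 level of the 5 measured fatty acid enzymes on each of the 15 arrays, with points for arrays and a bar for the group mean (n = 3 each; each panel has its own vertical axis, which does not start at 0). Neonatal arrays reach effector levels for Scd1 and Acly, lie above naive levels and mostly below effector levels for Fasn, and stay at naive levels for Elovl6.

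Among the regulators the changes ran in both directions: 5 rose, 2 fell and 3 were not called, with a median of 0.25. Of the SREBP machinery, 4 of 5 genes rose. Insig1, the retention protein that is itself an SREBP target, was at 7.16, 7.28 and 7.66 in neonates, 8.21, 7.97 and 7.90 in effector females, 7.85, 7.52 and 7.61 in effector males, 6.88, 6.86 and 6.15 in naive females and 6.58, 6.70 and 6.99 in naive males. Effector and neonatal arrays all lay above the naive adult arrays, by 1.15 ± 0.15 for effector adults (SE; limma adjusted p = 3.8e-05). Its relative Insig2 was at 6.19 ± 0.31 in effector adults and 6.13 ± 0.42 in naive adults (SD, n = 6 each) and was not called (difference 0.06 ± 0.19).

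Srebf1, which encodes the SREBP that favours fatty acid genes, rose by 0.79 ± 0.13 without overlap (limma adjusted p = 0.00035). Srebf2, the SREBP that favours sterol genes, rose by 0.78 ± 0.16 (limma adjusted p = 0.0018). It was at 8.43 to 8.87 in effector adults and at 7.54 to 7.90 in 5 of the 6 naive adult arrays, with naive female array 2 at 8.55 inside the effector range. Scap rose by 0.44 ± 0.13, but of its 2 features the brighter was used, and with the mean of both its difference was 0.11 and not called. It also lost its call after a further quantile normalization (0.25) and without the 3 arrays that stood apart (0.35).

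Stard4, a soluble carrier that moves cholesterol between membranes, was at 5.17, 6.15 and 5.50 in neonates, 5.71, 6.09 and 6.24 in effector females, 6.35, 6.56 and 6.23 in effector males, 4.78, 4.82 and 5.31 in naive females and 4.87, 4.69 and 5.05 in naive males. All effector arrays were above all naive ones, by 1.28 ± 0.17 (SE; limma adjusted p = 4.1e-05). Mylip, an E3 ubiquitin ligase and LXR target that marks lipoprotein receptors for degradation, ran the other way. It was at 9.33, 8.45 and 8.94 in neonates, 7.13, 6.09 and 6.14 in effector females, 6.96, 6.61 and 6.89 in effector males, 7.91, 7.79 and 7.82 in naive females and 8.29, 7.53 and 8.96 in naive males. Effector arrays were the lowest throughout, and Mylip fell by 1.41 ± 0.24 relative to naive adults (limma adjusted p = 0.00032).

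The sterol exporter gene Abca1, another LXR target, was at 5.39, 5.63 and 5.58 in neonates, 4.82, 4.89 and 4.61 in effector females, 4.63, 5.28 and 4.67 in effector males, 5.70, 5.96 and 4.94 in naive females and 6.20, 5.98 and 5.44 in naive males. It fell by 0.88 ± 0.19 in effector adults (SE; limma adjusted p = 0.0018), with naive female array 3 inside the effector range. Abcg1, an exporter of the same class and also an LXR target, averaged 6.35 ± 0.37 in effector adults and 6.35 ± 0.45 in naive adults (SD, n = 6 each) and was not called (difference -0.00 ± 0.22). Nr1h3, which encodes LXR alpha, averaged 4.14 ± 0.16 in effector adults and 4.22 ± 0.19 in naive adults and was not called, at levels near the signal of the sensory receptor features.

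**Figure D3:**
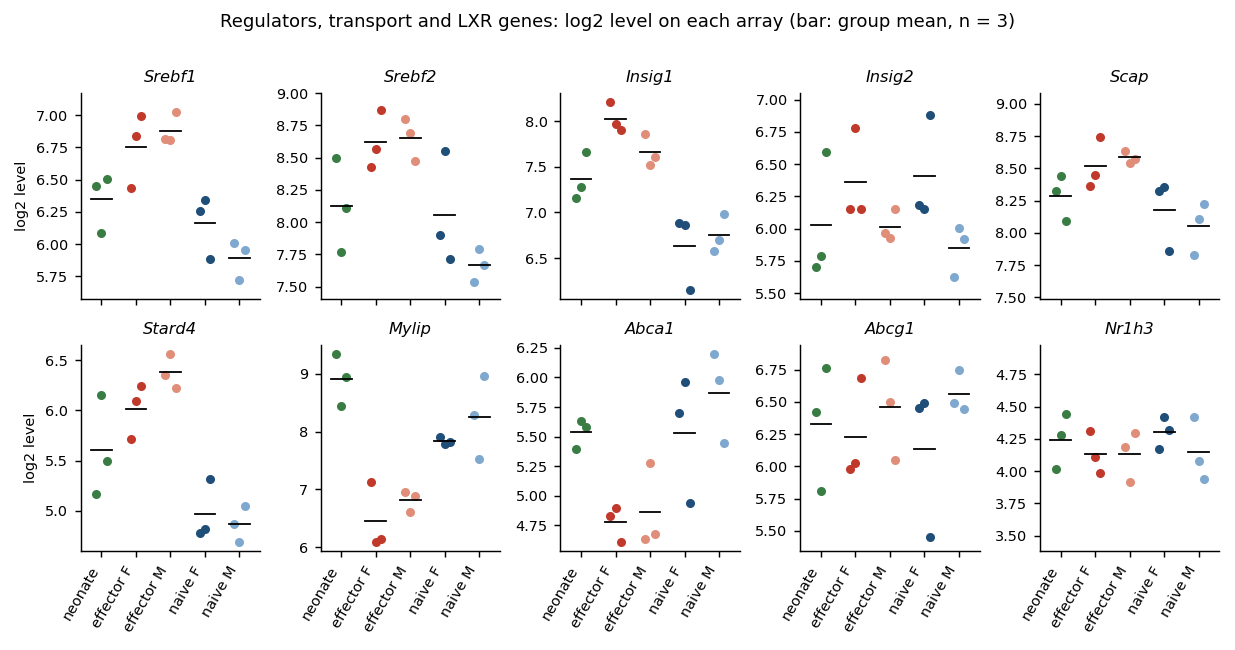
Log2 level of the 10 measured regulator, transport and LXR genes on each of the 15 arrays, with points for arrays and a bar for the group mean (n = 3 each; each panel has its own vertical axis, which does not start at 0). Mylip is below all other arrays in effector cells and has its highest mean in neonates, and Abca1 has its lowest mean in effector cells. Abcg1 and Nr1h3 overlap between all groups. Insig2 overlaps between neonatal, effector and naive adult arrays, with all naive female arrays above all naive male arrays.

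The members rose in both sexes. In females 16 members rose and 1 fell between effector and naive cells, where 10.2% of all genes were higher and 3.77% lower. In males 19 rose and 2 fell, where 18.7% were higher and 6.25% lower. The members' median difference was 0.78 in females and 0.83 in males. Of these calls, 13 genes rose in both sexes: Hmgcs1, Fdps, Fdft1, Sqle, Cyp51, Msmo1, Nsdhl, Hsd17b7, Fasn, Elovl6, Srebf1, Insig1 and Stard4. Mylip fell in both, by 1.38 ± 0.34 in females and by 1.44 ± 0.34 in males.

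Genes past the threshold in 1 sex alone were not shown to differ between the sexes. Scd1, Acaca and Acly passed in females alone, with differences of 0.82, 0.93 and 0.71 in females and 0.41, 0.56 and 0.43 in males. Pmvk, Tm7sf2, Ebp, Dhcr7, Srebf2 and Scap, and in the lower direction Abca1, passed in males alone. A limma test of the difference of the female and male responses called none of the 31 members, and 0.0% of all genes (0 of 16257, with 866 at an unadjusted p under 0.05). For Msmo1, with the widest gap, the responses were 1.03 in females and 1.76 in males, and their difference was -0.73 ± 0.40 (SE; limma adjusted p = 0.93). In limma's tests of females against males no member was called within the naive cells, where 0.209% of all genes were called, or within the effector cells, where 0.0308% were. Without effector female array 2 the members that rose in females numbered 10, and without the 3 arrays that stood apart 13 rose and 1 fell in males, where the lone naive male array left is assumed to vary like the other groups. In females 10 of the 17 calls held in all alternatives. Srebf1 was close to the threshold there (0.60 ± 0.19; limma adjusted p = 0.049) and lost its call in 17 of 26 alternative fits. The calls of Msmo1 and Nsdhl in females were lost in 6 each, without effector female array 2 (0.96 for Msmo1 and 0.56 for Nsdhl) among them. Without naive female array 3, Scd1 (0.59), Acaca (0.77) and Acly (0.47) were not called in females, and each was also lost without effector female array 1 or 2. The call of Mylip in females was lost without effector female array 2 (-1.20) or 3 (-1.23).

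In males 10 of the 21 calls held in all alternatives, and Pmvk and Srebf1 were lost only under a 2-fold minimum. Without the 3 arrays that stood apart Elovl6 (1.38), Insig1 (0.67), Nsdhl (0.81), Srebf2 (0.99), Dhcr7 (0.88), Tm7sf2 (0.47), Scap (0.36) and Abca1 (-0.58) were not called in males. Over all alternative fits Scap lost its male call in 15, Nsdhl in 8, Dhcr7 in 7, Tm7sf2 in 5 and Ebp in 4.

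Neonatal cells shared few of these calls. Relative to naive adults, 6 members were higher in neonates and none lower, where 6.04% of all genes were higher and 4.12% lower. The members' median difference was 0.26, against 0.02 for all genes tested. Without the 3 arrays that stood apart 2 members were higher. Of 16 sterol enzymes 2 were higher (median 0.16), of 5 fatty acid enzymes 2 (median 0.58) and of 10 regulators 2 (median 0.22). The comparisons of neonates and of effector adults with naive adults share the 6 naive adult arrays, so their values are given side by side and not correlated.

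Cyp51 was higher in neonates than in naive adults by 1.15 ± 0.22 (SE, n = 3 and 6; limma adjusted p = 0.0034), beside 2.21 in effector adults. Fasn was higher by 0.98 ± 0.18 (limma adjusted p = 0.0035), beside 1.62. Cyp51 was the member whose call held in every alternative processing, and Fasn lost its call only under a 2-fold minimum and without the 3 arrays that stood apart (0.69). Hmgcs1 was higher by 0.93 ± 0.26 (limma adjusted p = 0.032), with neonatal array 1 at 6.78 and neonatal array 2, at 5.46, within the naive range, and without neonatal array 1 the difference was 0.61 and not called. The call was also lost without naive male array 1 or 2, naive female array 2 or 3 or neonatal array 3, with differences of 0.85 to 0.91.

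Insig1 was higher in neonates by 0.67 ± 0.19 (limma adjusted p = 0.033), Acly by 0.59 ± 0.17 (limma adjusted p = 0.042) and Stard4 by 0.69 ± 0.21 (limma adjusted p = 0.048). These 3 calls were close to the threshold. That of Insig1 was lost without naive male array 1 or 2 or neonatal array 2 or 3 (0.52 to 0.71). That of Acly was lost without naive male array 1 or 2, naive female array 3, effector male array 3, neonatal array 1 or 3 or any of the 3 effector female arrays (0.47 to 0.59). That of Stard4 was lost without either of neonatal arrays 2 and 3, naive male arrays 1 and 2 or naive female arrays 1 and 2, or without any of the 6 effector arrays (0.41 to 0.74). For Stard4, neonatal array 2 at 6.15 stood above 5.17 and 5.50, and without it the difference was 0.41. Fitted on the arrays compared alone, or without the 3 arrays that stood apart, 2 members were called. Of other genes that rose in effector adults, Elovl6 differed between neonates and naive adults by 0.12 ± 0.38, Sqle by 0.21 ± 0.27 and Fdps by 0.43 ± 0.20, and none of these was called. Pmvk was below all naive arrays in neonates, by -0.37 ± 0.14, and was not called (limma adjusted p = 0.10).

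Set directly against effector adults, neonates had 12 members lower and 2 higher, where 14.7% of all genes were lower and 5.93% higher. The members' median difference was -0.51, against -0.03 for all genes. Without the 3 arrays that stood apart 12 were lower and 1 higher. As deposited 28.8% of all called genes were higher in neonates in this comparison, and 16.4% after centring, when the median of all genes was -0.14 and that of the members -0.62. After centring Mvd, Srebf1, Srebf2, Insig1 and Stard4 were also called lower, for 17 in all. After a further quantile normalization 9 members were lower, with a median of -0.41. The 12 genes were 10 sterol enzymes with Fasn and Elovl6, and the sterol enzymes had a median of -0.73. Elovl6 was lower by 2.19 on the log2 scale (difference -2.19 ± 0.38; limma adjusted p = 0.0011), Sqle was at -1.78 ± 0.27, Fdps at -1.67 ± 0.20, Fdft1 at -1.44 ± 0.22 and Msmo1 at -1.33 ± 0.25. Fasn was at -0.64 ± 0.18 and lost its call in 7 alternative fits, among them those without effector female array 3 (-0.58), neonatal array 1 (-0.54) or neonatal array 3 (-0.59). The smallest of the 12, Ebp at -0.49 ± 0.16, lost its call in 13, among them those without effector female array 2 or 3, effector male array 1 or 2 or neonatal array 2 (-0.51 to -0.32). Hsd17b7, at -0.76 ± 0.18, lost it without neonatal array 2 (-0.63).

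Mylip was higher in neonates than in effector adults by 2.27 ± 0.29 (SE; limma adjusted p = 0.00012). Neonates also had the highest mean level of Mylip of all groups, although their difference from naive adults, 0.86 ± 0.29, was not called (limma adjusted p = 0.075) but was without naive male array 3 (1.03). Abca1 was higher in neonates than in effector adults by 0.72 ± 0.23 (limma adjusted p = 0.036), a call lost after centring (0.61) and without effector male array 1 or 3 or any of the 3 neonatal and 3 effector female arrays (0.66 to 0.79). Acly differed between neonates and effector adults by 0.01 ± 0.17 and Scd1 by -0.04 ± 0.18, and neither was called.

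**Figure D4:**
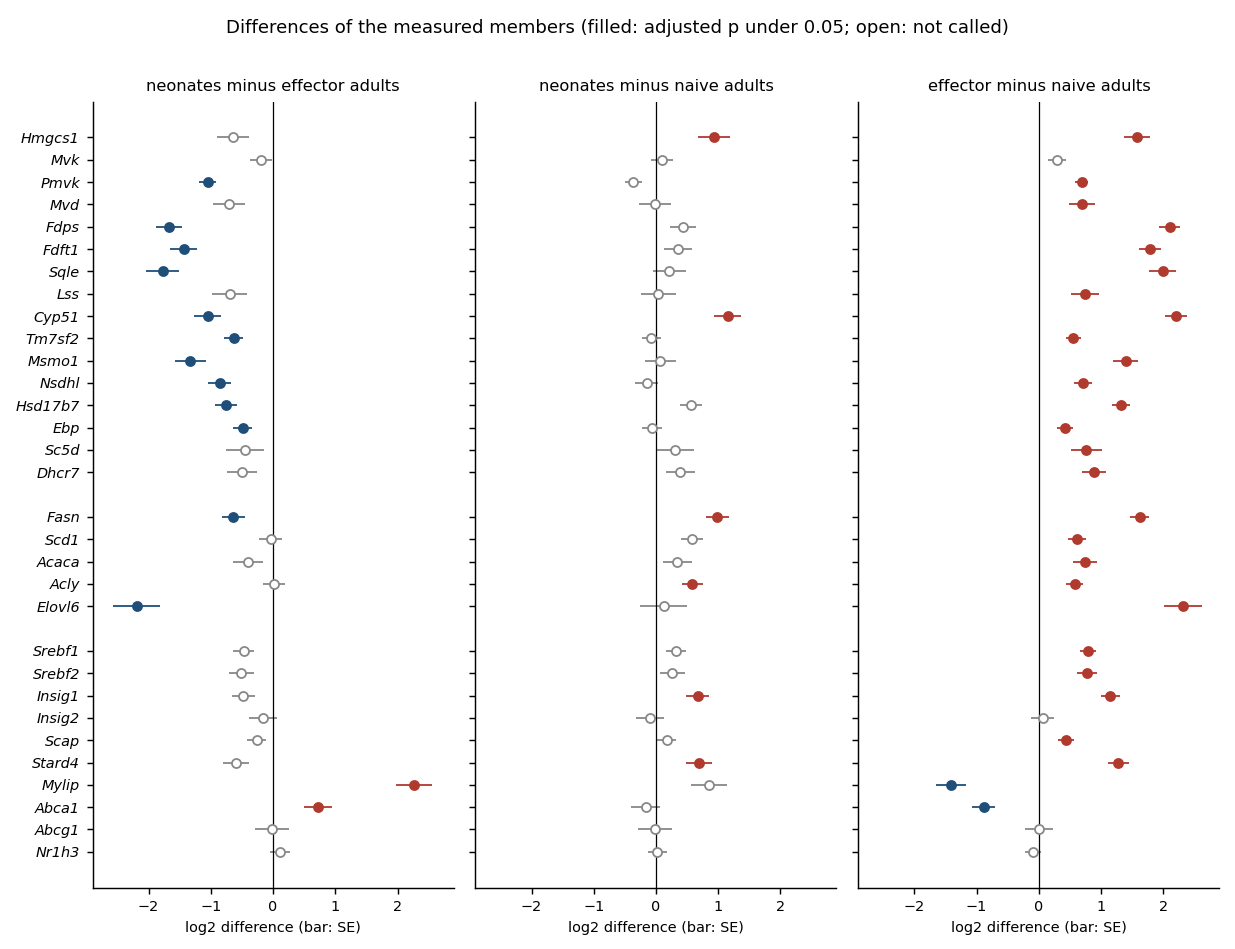
Log2 difference of the 31 measured members with its standard error, for neonates minus effector adults, neonates minus naive adults and effector minus naive adults (filled points: limma adjusted p under 0.05; open points: not called; sterol enzymes at the top, then fatty acid enzymes, then regulators). In the right panel 25 members lie above 0 and are filled, with Mylip and Abca1 filled below 0, while in the middle panel 6 are filled.

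Genes next to the pathways, which were not members, were followed in 3 lists, beside 23.7% of all genes higher and 10.9% lower between effector and naive adults. Of 17 other fatty acid synthesis genes 8 rose in effector adults and none fell, with a median of 0.19. The desaturases Fads2 and Fads1, which act on polyunsaturated fatty acids, rose by 2.53 ± 0.35 and 1.36 ± 0.31, the elongation dehydratase Hacd3 by 1.35 ± 0.19 and the acyl-CoA ligase Acsl4 by 1.33 ± 0.20. Of 20 sterol transport, storage and sensing genes 8 rose and none fell, with a median of 0.43, led by the lipoprotein receptor Scarb1 at 1.26 ± 0.17, the oxysterol binding protein gene Osbp at 0.72 ± 0.24, Npc2, which carries cholesterol out of lysosomes, at 0.65 ± 0.21 and the phospholipid remodelling enzyme Lpcat3 at 0.63 ± 0.13. Of 11 genes of the isoprenoid and dolichol branch, which uses the farnesyl diphosphate made by Fdps, 2 rose and none fell, with a median of 0.25. This last count was near the share of all genes. The called genes were Dhdds, the dolichol synthase subunit, at 0.72 ± 0.22 and the prenylcysteine methyltransferase Icmt at 0.49 ± 0.14.

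In neonates relative to naive adults, where 6.04% of all genes were higher, 1 of the 17 other fatty acid synthesis genes was higher (list median -0.01), 2 of the 20 sterol transport genes (list median 0.24) and 0 of the 11 isoprenoid and dolichol genes (list median 0.06), and none was lower. These counts were near the share of all genes. Acsl4 was higher by 1.12 ± 0.25 (limma adjusted p = 0.010). Mbtps2 and Mbtps1, the Golgi proteases that release the SREBPs, were higher by 1.28 ± 0.22 and 0.78 ± 0.20. Relative to effector adults, Mbtps2 was also higher in neonates, by 0.80 ± 0.22, while Fads1, at -2.31 ± 0.38, and Fads2, at -2.21 ± 0.43, were lower.

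Proliferation genes were also highest in effector adults. All 11 measured proliferation genes rose in effector adults relative to naive adults (median 3.64), where 23.7% of all genes were higher. All 11 were also higher in neonates than in naive adults (median 2.33), where 6.04% of all genes were higher. All 11 were lower in neonates than in effector adults (median -1.29), where 14.7% of all genes were lower. The mean level of the 11 genes was 7.25 to 7.70 per neonatal array, 8.42 to 8.93 per effector array and 4.93 to 5.18 per naive adult array. Neonatal arrays were thus nearer to effector than to naive levels for proliferation genes, while their sterol enzyme mean, given above, overlapped the naive range. The fatty acid enzyme mean was 6.25 to 6.45 per neonatal array, 6.77 to 7.21 per effector array and 5.25 to 6.31 per naive adult array. The part of proliferation in the members' differences was not tested.

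**Figure D5:**
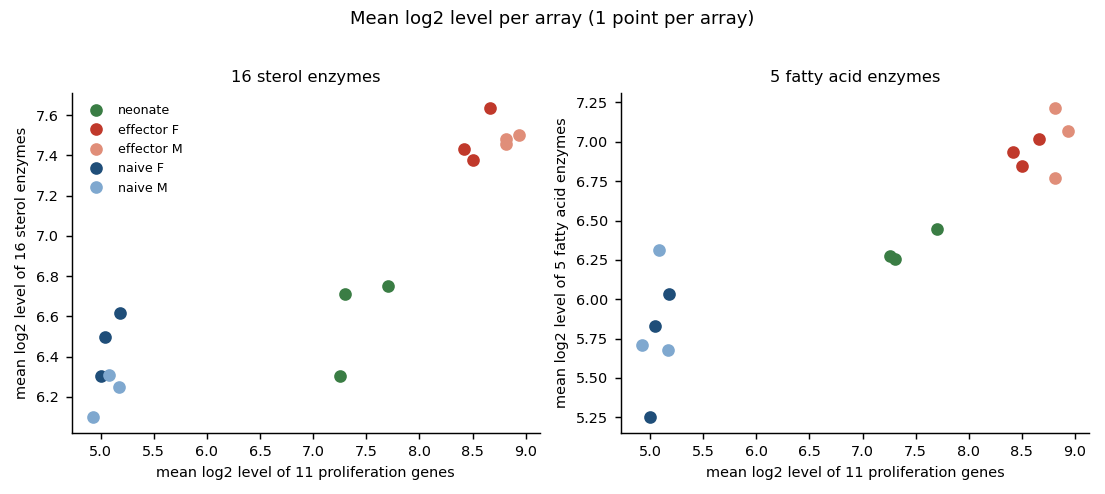
Mean log2 level of the 16 sterol enzymes (left) and of the 5 fatty acid enzymes (right) against the mean log2 level of 11 proliferation genes, with 1 point per array (axes do not start at 0). Effector arrays lie at the upper right and naive adult arrays at the lower left, and neonatal arrays lie at 7.25 to 7.70 on the proliferation axis with sterol means of 6.31 to 6.75.

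Markers of other lung cells that are rich in these pathways were read beside the members. The 10 tested alveolar type 2 markers, which mark the lipid-secreting epithelial cells of the lung, belong to a list of 12 that averaged 4.77 to 4.91 per neonatal array, 4.58 to 4.82 per effector array and 4.41 to 4.84 per naive adult array. In effector adults 3 of the 10 rose (Etv5 by 1.10, Lpcat1 by 1.05 and Napsa by 0.73). This count was near the share of all genes, of which 23.7% were higher and 10.9% lower between effector and naive adults. Sftpc, their defining surfactant gene, averaged 7.51 in neonates, 4.84 in effector adults and 5.53 in naive adults. It was higher in neonates than in naive adults by 1.98 ± 0.46 (limma adjusted p = 0.013). No other of the 10 was called in that comparison, where 6.04% of all genes were higher and 4.12% lower. The differences of the 10 had a median of 0.09, with 7 positive and 3 negative. Sftpb averaged 4.46 in neonates and 4.82 in naive adults, and Sftpa1 4.70 and 4.89. Of 11 macrophage markers 1 rose (Cd68) and 2 fell (Adgre1 and Mrc1) in effector adults, and list means were 4.47 to 4.91 in neonates, 4.41 to 4.59 in effector adults and 4.58 to 4.95 in naive adults.

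None of 5 tested adipocyte and lipofibroblast markers was called between effector and naive adults, and list means were 4.16 to 4.42 in neonates, 3.92 to 4.01 in effector adults and 3.98 to 4.24 in naive adults. Of 8 T cell markers 3 (Cd3g, Cd8b1 and Lat) fell in effector adults, where 23.7% of all genes were higher and 10.9% lower. List means were 6.16 to 6.33 in neonates, 5.53 to 5.83 in effector adults and 6.05 to 6.28 in naive adults. The list mixed bright and dim genes. In neonates, effector adults and naive adults Cd3g averaged 10.37, 9.65 and 10.22, and Lat 9.66, 9.01 and 10.58, all above Gata3. Cd4 averaged 4.38, 4.22 and 4.45. Of 4 tested B cell markers 1 rose (Cd79b) and 1 fell (Ighm) in effector adults, with list means of 4.95 to 5.26 in neonates, 4.64 to 4.99 in effector adults and 5.01 to 5.40 in naive adults. Ighm averaged 9.08, 7.80 and 9.99 in these groups, and Cd22 4.05, 3.95 and 4.14. Markers of other cells also moved between neonates and effector adults, where 5.93% of all genes were higher and 14.7% lower. Of the 5 adipocyte and lipofibroblast markers 3 were higher in neonates (Col1a1, Col1a2 and Col3a1), all 5 had a positive difference and the median was 0.43. Of the 8 T cell markers 3 were higher (Cd3e, Cd3g and Lat), all 8 were positive and the median was 0.51. Of the 4 B cell markers 2 were higher (Ighm and Pax5). Of the 10 alveolar type 2 markers Sftpc was higher, by 2.67 ± 0.46, and Etv5 lower, and of the 11 macrophage markers 1 was higher and 1 lower. The part of other cells in the members' differences was not tested.

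Within groups the members varied together to different degrees. After each gene's group mean was subtracted, the 10 pairs of fatty acid enzymes had a median r of 0.48 over the 15 arrays, ranging from 0.19 to 0.80. The 120 pairs of sterol enzymes had a median r of 0.11, ranging from -0.67 to 0.82, and the 45 pairs of regulators a median of 0.03. Single arrays enter these values. All 5 fatty acid enzymes were lower on naive female array 3 than on the other naive female arrays. Fasn, Acaca, Acly and Elovl6 were higher on naive male array 3 than on the other naive male arrays. The part of these arrays was not tested, and no r of other gene pairs was taken for comparison. These values are descriptions, since pairs share arrays and their scaling.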

How the data were processed

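The deposited table holds log2 expression levels, made with Affymetrix Expression Console and RMA per the submitters' processing notes; its versions and filters: not given in the sources used here. Per the labels, total RNA (Trizol) was labelled with a Nugen Encore biotin kit. RMA subtracts a modelled background, brings arrays to common quantiles and summarises probes, which compresses levels near background. Of 41345 features, 25335 were annotated, 23521 of them with exactly 1 symbol, 1814 with several and 16010 features with none. Features with 1 symbol that lay above the percentile 40 of an array in at least 3 arrays were kept (17153), and the feature with the highest mean was taken per gene, giving 16257 genes.

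With limma 3.58.1 in R 4.3.3, 1 model with 5 group means was fitted to the 15 arrays together (empirical Bayes, 10 residual and 5.05 prior degrees of freedom). Comparisons over adults weighted the sexes equally. Tests were two-sided, and p was adjusted by Benjamini-Hochberg over all genes. Errors given with differences are moderated standard errors. The pipeline was tested on simulated data. Members, gene lists and tests were chosen with earlier results of these data known. Every member is accounted for, and up to 4 called genes are named from each other pathway list and up to 3 from each marker list. Alternatives were no filter, a filter at percentile 60, centring, a further quantile normalization, a trended and robust prior, array weights, a replicate block, only the arrays compared, the mean of a gene's features, a 2-fold minimum, adults of 1 sex alone, each array left out in turn and, chosen after seeing the data, leaving out the 3 arrays that stood apart. Promoters are from RefSeq (GRCm38.p6). Figures and tables were made with Python 3.11.15 and matplotlib 3.10.9.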

Additional observations from a re-analysis of the deposited data

Results flagged for a closer look

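In each of 62 sets of 6 adult arrays (31 members, effector or naive adults), the highest and lowest array were compared with their neighbours by Dixon's criterion, which marks a single array far from the other 5. Chance marks about 1 in 20 sets, and 8 of 62 were marked. Srebf1, one of the SREBP genes, was lowest on effector female array 1 at 6.44, against 6.80 to 7.02 on the other effector arrays. Insig2 was highest on effector female array 2 at 6.78, against 5.93 to 6.15. Srebf2, the other SREBP gene, was highest on naive female array 2 at 8.55, against 7.54 to 7.90 on the other naive arrays. Nsdhl was lowest on the same array at 6.69, against 7.09 to 7.32.

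The other 4 were all on naive female array 3. There Pmvk was highest at 7.10, against 6.57 to 6.74 on the other naive arrays. Scd1 was lowest at 2.81, against 3.49 to 3.85. Acly was lowest at 6.60, against 7.31 to 7.55. Abcg1 was lowest at 5.45, against 6.45 to 6.75. Without naive female array 3 the calls of Pmvk, Scd1 and Acly between effector and naive adults held. Between effector and naive females, those of Scd1 (0.59) and Acly (0.47) were lost without it, and Pmvk (0.57), not called in females as reported, was called. Naive female array 3 was not among the 3 arrays that stood apart over all features.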

How the results depend on the processing

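No called member changed direction in any of the 28 alternatives. Between effector and naive adults, 12 of the 27 called members were called in every alternative, 8 were lost only under a 2-fold minimum and 7 in others. Between neonates and effector adults 8 of 14 held throughout, and between neonates and naive adults 1 of 6, Cyp51. The causes were not tested, beyond the fewer arrays or stricter rule that an alternative itself brings.

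A 2-fold minimum left 11 members higher and 1 lower between effector and naive adults (1555 of 5628 genes), 10 higher in males (1981 of 4048 genes), 1226 of 2276 genes in females, 1 member higher in neonates than naive adults (632 of 1652 genes), and 7 lower and 1 higher in neonates than effector adults (1081 of 3346 genes). Array weights gave 3745 genes and 2 lower members in females, 705 genes and 2 higher members for neonates against naive adults, 2068 genes and 1 higher member for neonates against effector adults, 19 genes for naive females against males (34 as reported) and 11 for effector females against males (5 as reported). Fitted on the arrays compared alone, neonates against naive adults gave 676 genes and 2 higher members, and each comparison of females with males, naive or effector, gave 8 genes. Neonates against adult females alone gave 935 genes for naive and 1942 for effector adults. Against naive adult males alone 3 members were higher. Without the 3 arrays that stood apart, an alternative chosen after seeing the data, males had 2224 genes and 1 lower member, and 2 members were higher in neonates than naive adults. Only 1 member was higher in neonates than effector adults after centring, after quantile normalization, without those 3 arrays and against females or males alone. The difference of the female and male responses gave 1 gene, no member, with the filter at percentile 60, after centring, with array weights, with the replicate block and without those 3 arrays.

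With each array left out in turn, females had 1361 to 2527 genes, 10 to 17 higher and 0 to 2 lower members. Genes were fewest without effector female array 2 or 3, and 2 members were lower without naive female array 3. Males had 2603 to 4391 genes and 1 to 2 lower members, the fewest of both without effector male array 3. The difference of responses had 0 to 7 genes, above 0 without naive male 3, naive female 3, effector male 2 or neonatal array 2. Neonates against naive adults had 1027 to 1849 genes (fewest without neonatal array 1) and 2 to 7 higher members (fewest without naive male 1, naive male 2 or neonatal array 3). Neonates against effector adults had 2067 to 3758 genes (fewest without neonatal array 2) and 1 to 2 higher members. Naive females against males had 16 to 84 genes, moved by over 1.5 times without naive male 2 or 3, any naive female array or effector female 3.

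Same-numbered replicates deviated together little if at all: over 30 pairs of arrays with the same number r ran from -0.11 to 0.10, with a median of -0.00. Pairs with different numbers were not taken for comparison, so a weak pairing by number cannot be told from none. With the replicate block 5511 genes were called between effector and naive adults, and 2 members were lower in females, with Abca1 (-0.76) added. The block also ended the calls of Srebf1 in females (0.60), Scap in males (0.53), Insig1 (0.67) and Acly (0.59) for neonates against naive adults and Ebp (-0.49) for neonates against effector adults, and it added Mylip (0.86) for neonates against naive adults, which left 5 higher members there.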
